A study of Mus musculus with 22 samples.

Results

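Grb14, an adaptor protein that binds the activated insulin receptor and restrains it, is described here together with 9 genes of insulin and insulin-like growth factor (IGF) signalling in embryonic mouse forelimbs. These 10 genes were Grb14, Grb10 and Grb7, the receptors Insr, Igf1r and Igf2r, the ligands Igf1 and Igf2, and the substrates Irs1 and Irs2. Grb14 was chosen because it was among the few genes that separated the genotypes in this very comparison, and the other 9 because they act around it. A probe was taken for a gene where its design name was the gene's symbol or its RefSeq accession belonged to the gene. By that rule 19 probes represented 9 of the 10 genes, no probe was matched to Irs2, and 18 probes of 9 genes passed the background filter, among 18628 genes and unnamed probes tested in all.

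The study measured forelimbs of embryos aged 13.5 days, of strain 129, in 9 wild-type samples and 13 samples with a knockout of Chsy1, which encodes a chondroitin sulphate synthase. Each array was a 2-colour Agilent design that carried the forelimb RNA in the Cy5 channel and, in the Cy3 channel, the Universal mouse reference, a commercial RNA pool. Every value below is therefore a log2 ratio of forelimb to reference, and a difference is knockout minus wild type. The labels give the replicates as biological but do not say whether a sample was 1 embryo or a pool, and they name neither the design of the deleted allele nor the sex of the embryos. The p-values thus set each difference against the spread between these samples, whether each was 1 embryo or a pool.

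IGF1 and IGF2 are secreted growth factors that bind the IGF1 receptor, a tyrosine kinase closely related to the insulin receptor, and drive growth of the embryo and its limbs. The activated receptors phosphorylate the insulin receptor substrates, which pass the signal to the PI3 kinase and AKT route, and SHC and GRB2 pass it to the RAS and ERK route. GRB7, GRB10 and GRB14 form 1 adaptor family. GRB10 and GRB14 dock on the active receptor and inhibit its kinase, whereas GRB7 is better known as an adaptor of other receptors and of cell migration. The IGF2 receptor does not signal through a kinase but takes up IGF2 and delivers it to lysosomes.

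All 22 arrays had 43379 non-control spots, of which 27214 to 30599 were well above background in the forelimb channel by the scanner software's flag, and no spot was saturated. Each of the 6 slides held both genotypes. Position on the slide was unevenly filled, since position 1 held only wild-type arrays, positions 3 and 4 held only knockout arrays, and position 2 held 3 of each. Array brightness, the median Cy5 signal of an array in scanner units, ran from 102.8 to 178.9 in wild type and from 138.2 to 175.1 in the knockout. It was not balanced between the genotypes, since the median difference in log2 Cy5 signal before normalisation, over all tested genes, was 0.28, higher in the knockout. Chsy1 itself was 6.11 log2 units lower in the knockout (SE 0.44). Its ratio lay between 73.2% and 122.4% of the wild-type mean in the wild-type arrays and between 0.869% and 1.82% in 12 knockout arrays, while the array labelled knockout 1 had 33.6%. All 8 markers of limb mesenchyme were well above background on all 22 arrays, whereas 3 of the 9 measured liver and trunk markers passed the background filter. Wild-type array 1 was the most extreme wild-type array in several tissue marker lists. Its mean deviation was -1.19 for endothelium, -0.92 for cartilage and 0.98 for liver and trunk markers. Knockout arrays reached -0.94, -0.57 and 0.99 in the same lists. The medians of the IGF availability and tissue marker lists below are given without wild type 1 too. No knockout array was left out there.

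Grb14 was lower in the knockout forelimbs. Its log2 ratio to the reference was -1.38 at the lowest, -1.23 at the median and -0.84 at the highest of the 9 wild-type arrays. In the 13 knockout arrays it was -1.78, -1.61 and -1.30. Of the 13 knockout values all were under the median of wild type and 12 were under its lowest array, so that the groups overlapped through knockout 5 alone. The means were -1.19 ± 0.18 (SD, n = 9) and -1.59 ± 0.11 (SD, n = 13), which put Grb14 2.28-fold under the reference in wild type and 3.01-fold under it in the knockout. The difference was -0.40 (SE 0.063, 95% interval -0.53 to -0.27), a 1.32-fold lower ratio. Because this contrast placed Grb14 among the genes described, its adjusted p of 0.015 from limma says how it was chosen and is not evidence of its own. In whole forelimbs, fewer cells carrying a transcript and less transcript per cell cannot be told apart.

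**Figure D1:**
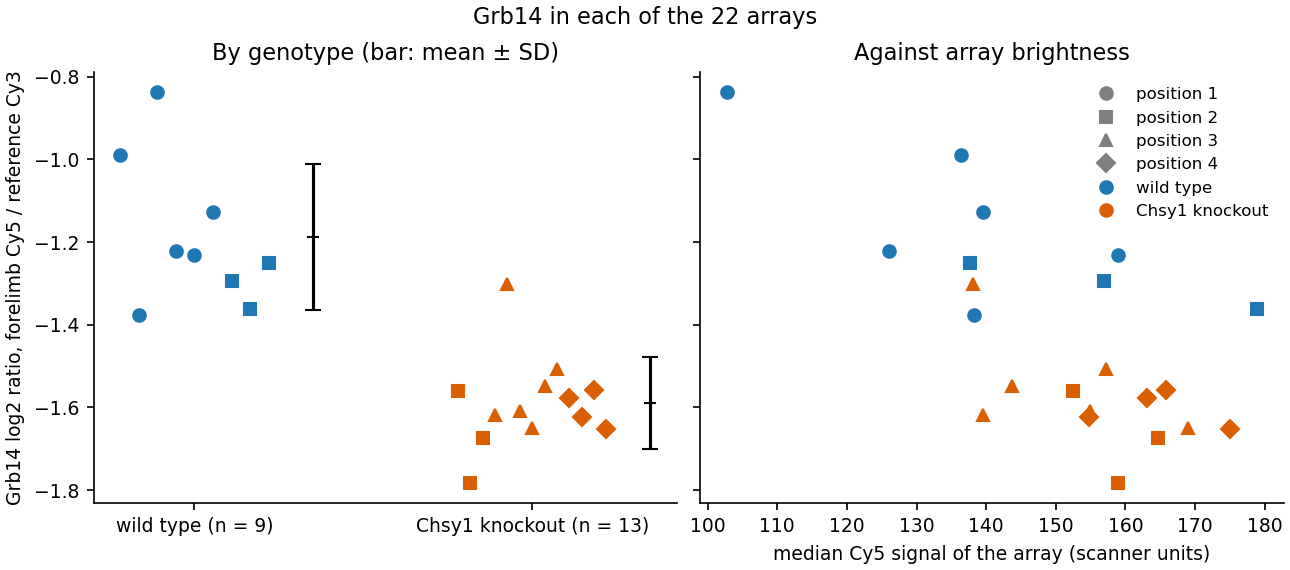
Grb14 log2 ratio of forelimb Cy5 to reference Cy3 in each of the 22 arrays, by genotype on the left (bars are mean ± SD) and against the array's median Cy5 signal in scanner units on the right, with the marker shape giving the position on the slide. The knockout arrays lie between -1.78 and -1.30 and the wild-type arrays between -1.38 and -0.84, and the dimmest array, wild type 3, is also the highest.

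The probe behind these values lies on the minus strand at chr2:64713502-64713561 of mm8, the build named in the file headers; which exon it lies in was not analysed here. Its spot was well above background on all 22 arrays. The mean Cy5 signal, with no background taken off, was 479 at the lowest, 791 at the median and 1164 at the highest wild-type array, and 571, 664 and 812 in the knockout, against a local background of 50 to 61. The Cy3 signal of the common reference at the same spot stayed between 902 and 1093. The unnormalised Cy5 signal alone, as log2 after the background was subtracted, differed by -0.16 between knockout and wild type at Grb14, while the median over all tested genes was 0.28 higher in the knockout, so that Grb14 lay 0.44 below that general shift. In the reference channel the difference at Grb14 was -0.0067. The reference channel thus held little of the difference in ratio, which lay in the forelimb channel relative to its general shift. The unnormalised Cy5 difference of -0.16 stood beside an SD of 0.37 in wild type and 0.17 in the knockout. A second Grb14 probe, at chr2:64729611-64729670, was well above background on 0 arrays and gives no second reading.

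Grb14 was chosen from these same arrays, so its values by slide and position describe it and are no further evidence. It was lower in the knockout on 6 of 6 slides. The difference between slide means was -0.46 on slide 1, -0.093 on slide 2, -0.54 on slide 3, -0.40 on slide 4, -0.44 on slide 5 and -0.46 on slide 6, each from 3 or 4 arrays. Slide 2 stood apart with a difference several times smaller than the rest; it carried knockout 5, the highest knockout array, and wild type 2 and wild type 8, the lowest wild-type arrays. By position, the wild-type mean was -1.13 at position 1 (n = 6) and -1.30 at position 2 (n = 3). The knockout mean was -1.67 at position 2 (n = 3), -1.54 at position 3 (n = 6) and -1.60 at position 4 (n = 4). At position 2, the only position with both genotypes, the 3 wild-type arrays ran from -1.36 to -1.25 and the 3 knockout arrays from -1.78 to -1.56, without overlap, and the difference was -0.37. Outside position 2, position and genotype cannot be told apart.

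Grb14 also varied with array brightness. After genotype means were taken off, Pearson's r between the Grb14 ratio and log2 array brightness was -0.68 over 22 arrays and Spearman's rho was -0.56. The permutation p-values were 0.0023 and 0.011, and 0.021 and 0.098 after Benjamini-Hochberg adjustment over the 9 measured genes. Without wild type 3 and wild type 8, the arrays farthest from the median brightness, r was -0.43. Within genotype r was -0.75 in wild type (n = 9) and -0.54 in the knockout (n = 13). Of all genes tested, 0.967% had an r at or below that of Grb14. Because the knockout arrays were the brighter ones by the median over all genes, brightness and genotype cannot be fully told apart for Grb14. With brightness as a covariate, an alternative chosen after seeing the data, the Grb14 difference was -0.31 (95% interval -0.43 to -0.19) and its adjusted p from limma was 0.15. Among the other 8 genes, Grb10 varied the opposite way, with r of 0.56 and rho of 0.47 (adjusted permutation p 0.025 and 0.13), and r of 0.53 without the same 2 arrays.

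Most of the alternative settings left the Grb14 difference near -0.40, but 8 of the 16 took its adjusted p above the threshold of 0.05, and over those settings the adjusted p in limma ran from 0.00136 to 1.00. Median centring of each array in place of an intensity-dependent loess curve gave -0.12, on a scale where the median of all genes was 0.24, which is 0.35 below that median; without that median taken off, its unadjusted p in limma was 0.277. The scanner software's own ratios gave -0.40 with an adjusted p of 0.057 from limma. Slide as a block gave -0.39 with an adjusted p of 0.14. Leaving out each of the 22 arrays in turn gave differences between -0.43 and -0.36. All were past the threshold, with a largest adjusted p of 0.0498 in limma. These are the arrays by which Grb14 was chosen, so this is no further evidence.

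**Figure D2:**
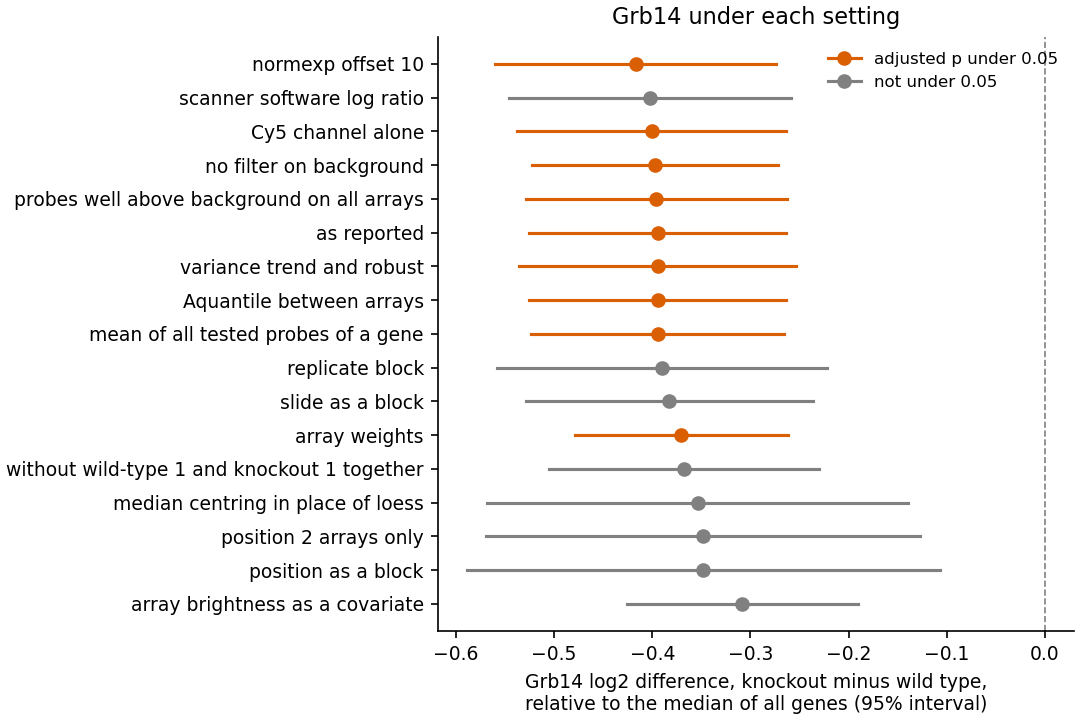
Grb14 difference in log2 ratio, knockout minus wild type, relative to the median of all genes, with its 95% interval under each setting; orange marks an adjusted p under 0.05 in limma and grey one that is not. Every interval lies below 0, from the reported setting to array brightness as a covariate, which gave -0.31; under median centring this holds only after the median of all genes is taken off.

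The residual Chsy1 signal in knockout 1 allowed a comparison with Grb14 within 1 array. Knockout 1 had a Grb14 log2 ratio of -1.56, or 77.2% of the wild-type mean. The knockout arrays as a whole ran from 66.2% to 92.4% of that mean, so the array with the most Chsy1 signal lay inside the range of the other knockout arrays for Grb14. Without it the Grb14 difference was -0.40.

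None of the other 8 measured genes of the set was past the threshold between the genotypes. Of the 9 genes tested, 3 were higher and 6 lower in the knockout, while 53.4% of all genes tested were lower. Of the 9 genes 1, Grb14, was past an adjusted p of 0.05 in limma. Of all 18628 tested, 4 were past that threshold (0.0215%), all lower, and since Grb14 was chosen from them nothing is read from its count. Of the other 8 genes, 0 were past the threshold and 0 had an unadjusted p under 0.05, which 5.33% of all tested genes had. Their smallest adjusted p was 0.924 and their median difference -0.024, beside -0.0072 over all genes tested. The 95% intervals of the probes that represent these 8 genes reached at most a 1.29-fold change, in Igf1r. Other probes of the same genes had wider intervals, from -0.48 to 0.23 for 1 Igf1r probe and from -0.32 to 0.48 for 1 Grb10 probe.

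**Figure D3:**
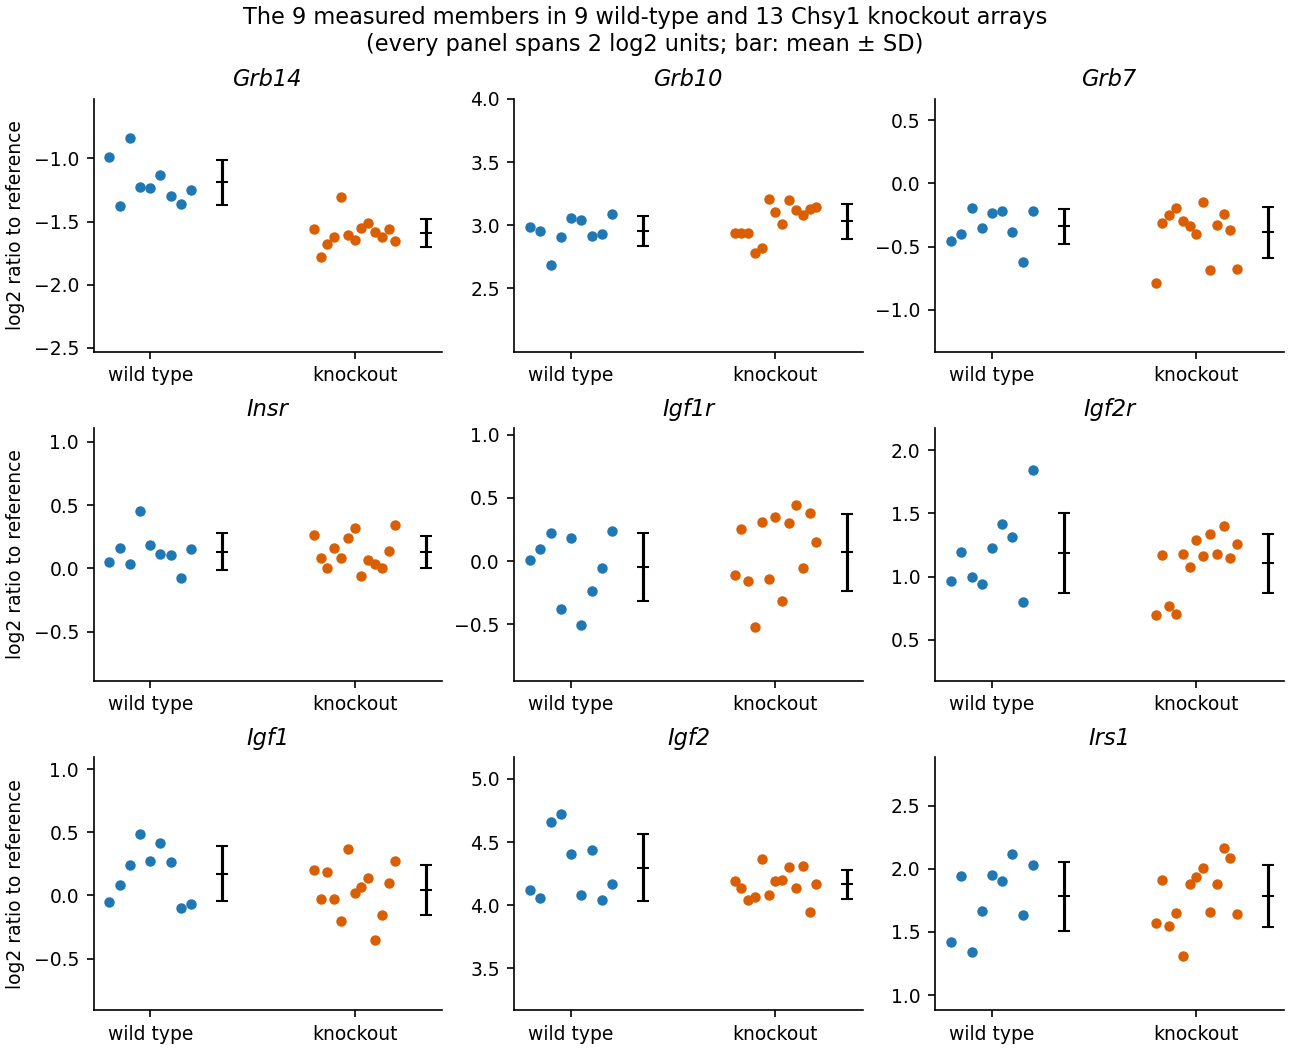
Log2 ratio of forelimb to reference for the 9 measured genes in the 9 wild-type (blue) and 13 knockout (orange) arrays, each panel spanning 2 log2 units, with mean ± SD beside each group. In the Grb14 panel 12 of the 13 knockout points lie below the lowest wild-type point; in the other 8 panels the ranges overlap widely.

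Among the ligands, Igf2 stood far above the reference in both genotypes. Igf2, the main growth-promoting IGF of the embryo, had log2 ratios of 4.04, 4.17 and 4.72 (lowest, median, highest) in wild type and 3.95, 4.17 and 4.36 in the knockout. The means of 4.30 ± 0.26 (SD, n = 9) and 4.17 ± 0.12 (SD, n = 13) stand for 19.7-fold and 17.9-fold over the reference. Their difference was -0.13 (SE 0.081, 95% interval -0.30 to 0.035, adjusted p 0.924 in limma). The medians were alike; 4 wild-type arrays lay above the highest knockout array, and 7 of 13 knockout arrays lay above the wild-type median. A second Igf2 probe differed by 0.04, in the other direction. The brightest of the Igf2 probes was printed as 10 spots on every array. In the scanner software's own log2 ratios, the SD between its spots within an array was 0.071 at the median. The SD was 0.26 between wild-type arrays and 0.11 between knockout arrays. Spots of 1 array share its labelling, hybridisation and scan.

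Igf1, the other IGF ligand, which acts before and after birth, was measured by 3 probes, all with a lower mean in the knockout. The probe that represents the gene had log2 ratios of -0.10, 0.24 and 0.49 in wild type and -0.35, 0.065 and 0.37 in the knockout. The means were 0.17 ± 0.22 (SD, n = 9) and 0.04 ± 0.20 (SD, n = 13), with a difference of -0.13 (SE 0.087, 95% interval -0.31 to 0.052, adjusted p 0.931 in limma). With that probe 11 of 13 knockout arrays were under the median of wild type, and the groups overlapped over most of their range. The probe printed as 10 spots differed by -0.20 (95% interval -0.39 to -0.013), with an unadjusted p of 0.038 and an adjusted p of 0.964 over all probes in limma, and 12 of 13 knockout arrays were under its wild-type median. In the scanner software's own log2 ratios, its spots within an array had a median SD of 0.029, against 0.29 between wild-type and 0.20 between knockout arrays. The remaining probe differed by -0.03, but it was dim and well above background on 9 of 9 wild-type and 11 of 13 knockout arrays. Its Cy5 signal was 80 to 147 in wild type and 84 to 134 in the knockout, over a local background of 49.5 to 60.5. It is therefore barely a reading of direction. By slide, Igf1 was lower in the knockout on 5 of 6, but at position 2 it was 0.083 higher.

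The receptors showed no difference beyond their spread. Igf1r, the kinase receptor of both IGFs, had log2 ratios of -0.50, 0.01 and 0.24 in wild type and -0.52, 0.15 and 0.45 in the knockout. The difference was 0.12 (SE 0.12, 95% interval -0.13 to 0.36, adjusted p 0.943 in limma). Its 3 other probes gave -0.13, -0.07 and -0.11, so the sign for Igf1r depended on the probe. With all its probes averaged the difference was -0.048.

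Igf2r, the receptor that clears IGF2, had log2 ratios of 0.80, 1.20 and 1.84 in wild type and 0.70, 1.17 and 1.40 in the knockout. The difference was -0.08 (SE 0.11, 95% interval -0.31 to 0.15, adjusted p 0.964 in limma). Wild type 9 was the highest array, and without it the difference was -0.00091. At position 2 it was -0.44. Igf2, Igf2r and Grb10 are also the imprinted genes of this set, expressed mainly from 1 parental copy in most embryonic tissues, and their differences were -0.13, -0.08 and 0.08.

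Insr, the insulin receptor and the best-known partner of GRB14, was close to the limit of measurement. Its probe was well above background on 4 of 9 wild-type and 7 of 13 knockout arrays in the forelimb channel and on 3 of 22 in the reference channel. The log2 ratios were -0.074, 0.12 and 0.45 in wild type and -0.061, 0.084 and 0.35 in the knockout, and the difference was -0.0023 (SE 0.061, 95% interval -0.13 to 0.12, adjusted p 0.998 in limma). Since an offset of 50 is added to both channels before the ratio is taken, signals this near background give a ratio drawn towards 0, and the narrow interval bounds that ratio and not the transcript. A further probe carries the design name D630014A15Rik, which the gene table lists as an older name of Insr and which the membership rule leaves out. It was well above background on all arrays, and its difference was 0.07 (95% interval -0.15 to 0.30).

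**Figure D4:**
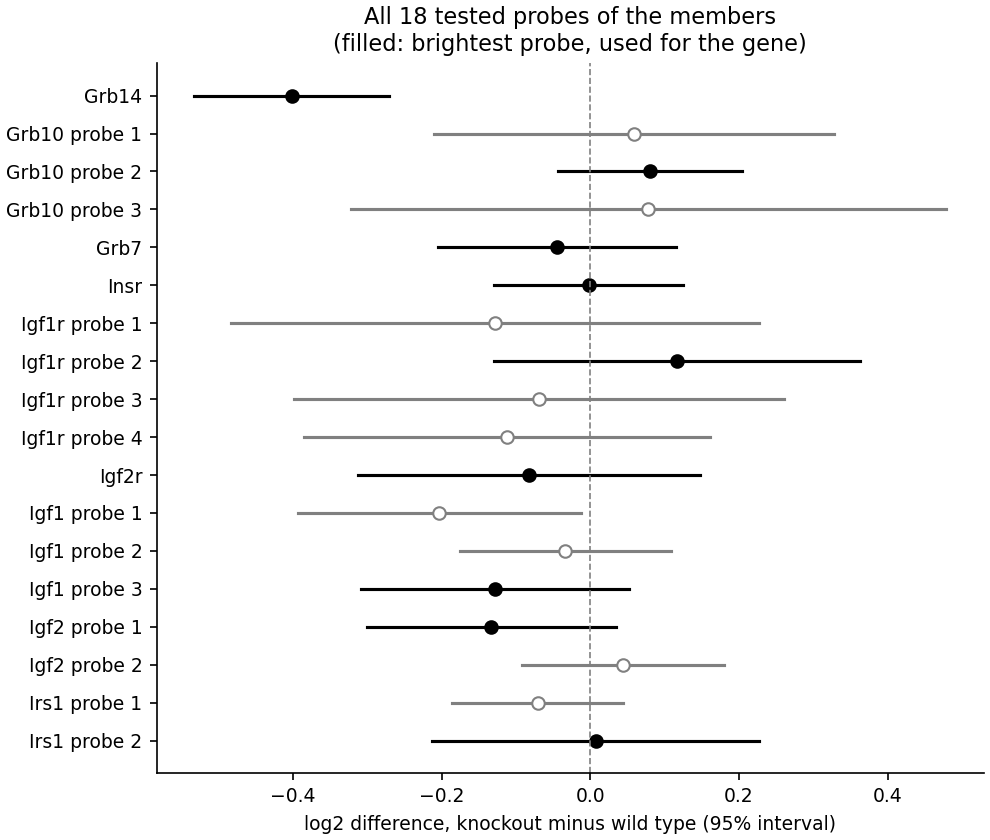
Difference in log2 ratio, knockout minus wild type, with its 95% interval for all 18 tested probes of the 9 measured genes; filled points are the brightest probe of each gene, which represents it, and open points its other probes. Grb14 has the interval farthest from 0, at -0.53 to -0.27, and 1 of the 3 Igf1 probes has an interval that ends at -0.013.

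The other adaptors of the Grb14 family had intervals that held 0. Grb10, the imprinted inhibitor of both receptors, had log2 ratios of 2.69, 2.95 and 3.09 in wild type and 2.78, 3.08 and 3.21 in the knockout. The means of 2.95 ± 0.12 (SD, n = 9) and 3.03 ± 0.14 (SD, n = 13) were 7.74-fold and 8.18-fold over the reference, and the difference was 0.08 (SE 0.060, 95% interval -0.043 to 0.20, adjusted p 0.931 in limma). Its lowest array was wild type 3, the dimmest, and 6 knockout arrays lay above the highest wild-type array. The 2 other Grb10 probes differed by 0.06 and 0.08. Grb7 had log2 ratios of -0.62, -0.35 and -0.20 in wild type and -0.79, -0.33 and -0.15 in the knockout, with a difference of -0.05 (SE 0.078, 95% interval -0.21 to 0.12, adjusted p 0.977 in limma). Its knockout arrays fell on both sides of the wild-type range, 3 below and 2 above it.

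Irs1, which carries the signal from both receptors to PI3 kinase, had nearly equal values in the genotypes. Its log2 ratios were 1.34, 1.90 and 2.12 in wild type and 1.31, 1.88 and 2.16 in the knockout. The difference was 0.0072 (SE 0.11, 95% interval -0.21 to 0.23, adjusted p 0.995 in limma), and a second probe gave -0.07. That second probe was dim, with a Cy5 signal of 92 to 154 in wild type and 116 to 143 in the knockout over a background of 51 to 62. The offset draws its ratio towards 0. At position 2 the Irs1 difference was -0.25.

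From array to array within genotype, no pair of the 9 measured genes had a correlation past the threshold. Over the 36 pairs, with genotype means taken off, 0 had an adjusted permutation p under 0.05 from 100000 resamples. The largest correlations were between Grb14 and Irs1, with r of -0.59 and rho of -0.36, between Grb10 and Igf2r, with r of 0.58 and rho of 0.57, and between Igf2r and Irs1, with r of 0.58 and rho of 0.52. For each of the 3 pairs the adjusted permutation p of r was 0.07. Without the 2 arrays farthest from the median, r was -0.28 for Grb14 and Irs1, 0.49 for Grb10 and Igf2r and 0.54 for Igf2r and Irs1.

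The named genes whose array-to-array pattern was most like that of Grb14 were Man1b1, a mannosidase of the secretory pathway, Neurl2, Dusp3, a dual-specificity phosphatase, Rassf4, and Ddx58, the RNA sensor also called RIG-I. Their Pearson r with Grb14 over 22 arrays, with genotype means taken off, was 0.85, 0.84, 0.83, 0.82 and 0.82 in that order. Over all named genes the 99th percentile of r was 0.70, and 16 genes reached 0.8. The likeness rested in part on 2 arrays: without wild type 3 and knockout 5, which had the Grb14 values farthest from their group's, r was 0.63, 0.71, 0.61, 0.69 and 0.62. Man1b1 differed by -0.0027 between the genotypes and Ddx58 by -0.38, with adjusted p of 0.997 and 0.918 in limma, so neither was past the threshold. The correlations are a description, and the part of array brightness in them was not tested.

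Genes that govern how much IGF reaches the receptor were not past the threshold either. This list held the IGF binding proteins, which carry and sequester IGFs, proteases and stanniocalcins that act on them, and RNA-binding proteins of the IGF2 transcript. Of its 16 genes 14 were tested, 9 lower and 5 higher in the knockout with a median difference of -0.07, and 0 were called. Of these, 2 had an unadjusted p under 0.05, both lower, as did 3.95% of all genes tested.

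Igfbp6, a binding protein that prefers IGF2, had log2 ratios of -2.70, -2.37 and -2.11 in wild type and -2.76, -2.62 and -2.50 in the knockout. Its difference was -0.21 (SE 0.064, 95% interval -0.34 to -0.073, adjusted p 0.910 in limma), and the groups overlapped. Igfbp7, a secreted relative of the family with low affinity for IGFs, had log2 ratios of -2.70, -2.34 and -1.93 in wild type and -2.85, -2.55 and -2.21 in the knockout. The difference was -0.21 (SE 0.080, 95% interval -0.38 to -0.047, adjusted p 0.918 in limma), and the groups overlapped. In parts of the same arrays, which are not a second measurement, both differences kept their sign. They were -0.16 and -0.22 at position 2, and -0.18 and -0.21 without wild type 1. Their size depended on the normalisation. With median centring in place of loess they were -0.11 and -0.12 relative to the median of all genes.

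The other 12 availability genes had intervals that held 0 with the probe that represents each. Igfbp5, a binding protein of connective tissue and bone, differed by 0.04 and Igfbp3, the main carrier in serum, by -0.0052. Igfbp2 differed by -0.07, Igfbp4 by -0.06 and Igfbp1 by 0.08. Pappa, the protease that cleaves IGFBP4 and IGFBP5, differed by -0.08, and its inhibitors Stc1 and Stc2 by 0.03 and -0.18. Htra1, a secreted protease, differed by -0.16. The IGF2 transcript-binding proteins Igf2bp1, Igf2bp2 and Igf2bp3 differed by -0.10, 0.06 and 0.0042. For Igfbp3, Igfbp4, Igfbp5, Pappa, Stc1, Igf2bp1 and Igf2bp3 the sign depended on the probe. Probes ranged from -0.23 to 0.04 for Igfbp5, from -0.0052 to 0.19 for Igfbp3 and from -0.10 to 0.12 for Igf2bp1. Wild type 1 was the lowest wild-type array for Igfbp1, Igfbp3 and Igfbp5 and the highest for Stc2. Without it 12 of the 14 genes were lower in the knockout, against 9 with all arrays, and the share over all genes was not counted. The median was then -0.11 beside -0.012 over all genes, and Igfbp1 turned to -0.11 and Igfbp5 to -0.07. Leaving out the lowest wild-type array moves a difference down by construction, so nothing is read from this count.

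**Figure D5:**
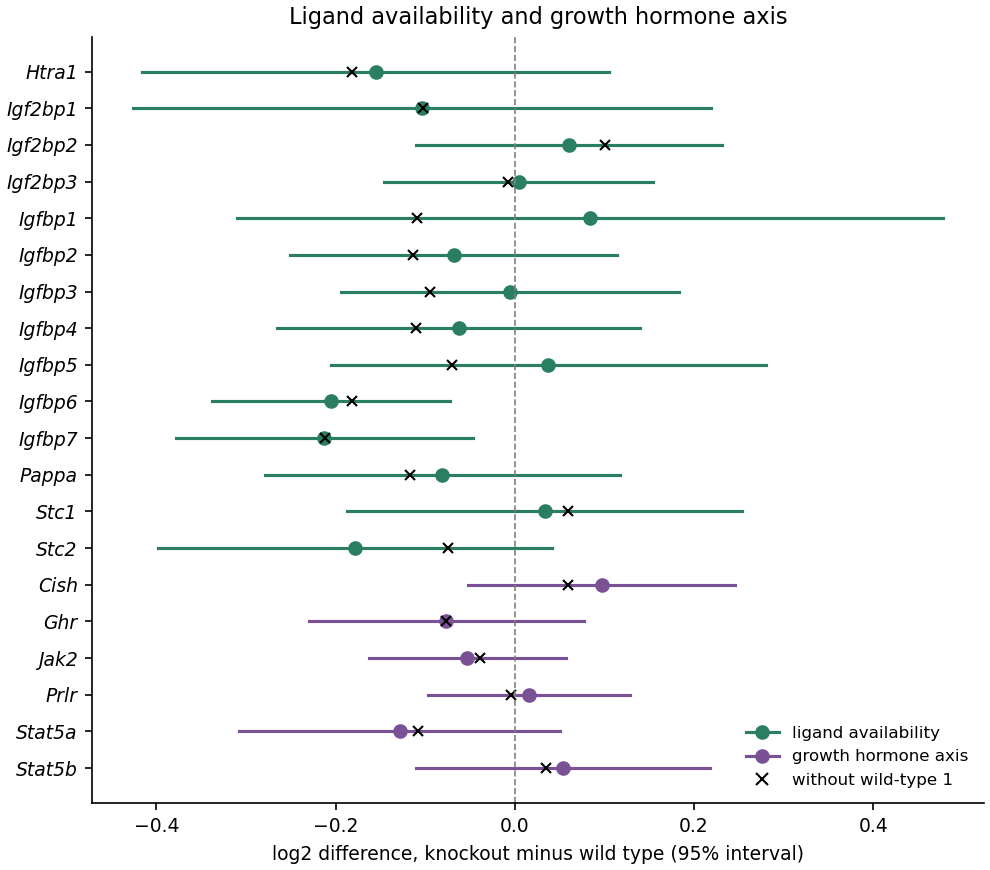
Difference in log2 ratio, knockout minus wild type, with its 95% interval for the 14 tested genes of IGF availability (green) and the 6 of the growth hormone axis (purple); crosses are the same difference without wild-type array 1. Igfbp6 and Igfbp7, both at -0.21, are the genes whose interval does not reach 0.

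The growth hormone axis, which drives Igf1 after birth, was also measured. Of its 7 genes 6 were tested, 3 lower and 3 higher, with a median of -0.02 and 0 called. The growth hormone receptor Ghr differed by -0.08, the kinase Jak2 by -0.05, the transcription factors Stat5a and Stat5b by -0.13 and 0.05, the STAT5 target Cish by 0.10 and the prolactin receptor Prlr by 0.02. All 6 intervals of the probes that represent these genes held 0. The 5 tested probes of Ghr ranged from -0.25 to -0.07 and the 2 of Jak2 from -0.05 to 0.07, so the sign for Jak2 depended on the probe.

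Downstream of the receptors the differences fell on both sides of 0. In the list of PI3 kinase, AKT and mTOR genes all 32 were tested, 16 lower and 16 higher with a median of 0.0038. The smallest p-values there belonged to Pik3r3, a regulatory subunit of PI3 kinase, at 0.23 (95% interval 0.0036 to 0.46), and to Akt2, a kinase of insulin signalling, at -0.16 (95% interval -0.33 to 0.0095). The 3 probes of Pik3r3 ranged from 0.04 to 0.23. Among 23 tested adaptors, suppressors and phosphatases, 10 were lower and 13 higher with a median of 0.016, which was -0.0065 without wild type 1. Socs1, a suppressor of cytokine and insulin signalling, differed by -0.16 (95% interval -0.31 to -0.012) and Shc3, a neuronal SHC adaptor, by -0.17 (95% interval -0.33 to -0.0028), but Shc3 was 0.11 higher at position 2.

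Of 15 tested genes of the RAS and ERK route 9 were lower and 6 higher, with a median of -0.03. Nf1, which switches RAS off, differed by -0.39 (95% interval -0.73 to -0.041) with 1 probe and by 0.17 with its other probe. Spry1, an inhibitor of receptor kinases, differed by 0.17 (95% interval -0.012 to 0.34) and by -0.06 at position 2. Of 14 tested FOXO targets and growth genes 7 were lower and 7 higher, with a median of 0.0043. Without wild type 1, 9 were lower, with a median of -0.04, and the share over all genes was not counted. Myc, a driver of growth, had log2 ratios of -2.85, -2.53 and -2.28 in wild type and -2.89, -2.78 and -2.49 in the knockout, a difference of -0.23 (95% interval -0.38 to -0.082, adjusted p 0.910 in limma). Its 3 probes gave -0.23 to -0.22, and it was -0.33 at position 2. With median centring it was -0.13 relative to the median of all genes. Ccng2, a FOXO target, differed by 0.20 (95% interval -0.0042 to 0.41). In the remaining list of 9 insulin-like ligands, receptors and substrates 5 were tested, and Rln1 at 0.08 and Insrr at 0.02 had the smallest p-values.

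Over all 7 lists, 109 of 119 genes were tested, 56 were lower and 53 higher, and 0 were past the threshold in limma. An unadjusted p under 0.05 was found for 6 lower genes and 1 higher gene, beside 3.95% and 1.38% of all genes tested. Their median difference was -0.0025, beside -0.0072 over all genes.

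No gene of the 9 tissue marker lists was past the threshold in limma. Of 11 tested skeletal muscle genes 10 were lower in the knockout with a median of -0.16. Over all genes tested 53.4% were lower. Without wild type 1 all 11 muscle genes were lower, with a median of -0.21, and the share over all genes was not counted. Limb mesenchyme genes had a median of 0.18, which was 0.014 without wild type 1, and the 8 surface ectoderm genes had a median of -0.12. The summed level of the muscle list, as the mean deviation per array, ran from -0.49 to 0.47 in wild type and from -0.47 to 0.28 in the knockout. Cartilage genes had a median of -0.08, endothelial genes -0.03, erythroid genes -0.03, macrophage genes 0.03, Schwann and neural crest genes 0.14 and the 3 measurable liver and trunk genes -0.08. Without wild type 1 the median was -0.17 for cartilage, with 10 of 10 genes lower, against 8 of 10 with all arrays. For endothelium it was -0.19, with 8 of 8 lower, against 7 of 8. Wild type 1 was the lowest wild-type array in the muscle, cartilage and endothelium lists, among others, and low knockout arrays stayed in. Leaving it out lowers the mean differences of these lists by construction, so these counts are no evidence of a shift. The medians without it were -0.08 for erythroid, -0.02 for macrophage, 0.07 for Schwann and neural crest and 0.02 for liver and trunk genes, and surface ectoderm was at -0.15. The part of these shifts in the Grb14 difference was not tested.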

How the data were processed

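Each sample was 1 array. The submitters' processing notes name Agilent Feature Extraction 9.5, and the file headers version 9.5.3.1, as the source of the deposited spot intensities. The deposited value table held that software's log10 ratio of Cy5 over Cy3 without change, and the median of each column was 0. Background flags were those deposited by the authors in the scanner files.

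Mean intensities were corrected with normexp (offset 50) on the local background median and loess-normalised within each array in limma 3.58.1 (R 4.3.3), without normalisation between arrays. Spots of 1 probe were averaged, leaving out outlier-flagged spots. Probes well above background in Cy5 on at least 9 arrays were kept, 27782 of 41174. Names came from RefSeq accessions and symbols of the GRCm38.p6 table, otherwise from the array design: 23374 probes were named by accession, 6678 by current symbol, 2886 by older symbol and 1826 by the design name, and 6300 had no gene name. The brightest probe represents a gene. Coordinates are those of the file headers' mm8.

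All 22 arrays entered 1 limma fit of genotype, with Benjamini-Hochberg adjustment over 18628 tests at 0.05. Arrays correlated at 0.886 to 0.993, so none counted as a repeated deposit. Precision is limited by how many arrays there are. The procedure was tested on simulated data. The genes of the set and the lists were chosen with earlier results of these data known. The genes named are Chsy1, the 10 genes of the set, the tested genes of IGF availability and the growth hormone axis, the 2 smallest p-values of each other pathway list, and the 5 named genes most like Grb14. Alternatives covered background correction, normalisation, probe filter, probe choice, slide, position, replicate number, array weights, variance model and left-out arrays; array brightness was added after seeing the data. Probe sequences were not used here.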

Additional observations from a re-analysis of the deposited data

Results flagged for a closer look

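In 6 of 30 genes examined, 1 wild-type array lay far from the other 8 by Dixon's test at 95%; chance alone marks about 1 in 20 groups. No knockout group was examined, since it holds more than 10 arrays. For Grb10 it was wild type 3, the dimmest array, at 2.69, with the nearest array at 2.91. For Insr it was wild type 4, at 0.45 with the nearest at 0.18, for a probe near background. Wild type 1 stood apart in the other 4 genes. Its log2 ratio was 1.27 for Igfbp1 with the nearest array at 2.71, and 2.23 for Igfbp3 with the nearest at 2.92. It was 3.90 for Igfbp5 with the nearest at 4.60, and -1.37 for Stc2 with the nearest at -1.99.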

How the results depend on the processing

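The count of 4 genes past the threshold in the whole comparison was 7 with array weights, 2 without wild type 1 and knockout 1 together, 1 with median centring, position as a block, slide as a block, the scanner log ratio or array brightness as a covariate (chosen after seeing the data), and 0 with position 2 alone, in limma; leaving out each array in turn gave 2 to 6, with 2 without wild type 2, wild type 5 or wild type 6. Grb14 lost its call with median centring (-0.12), position 2 alone or position as a block (-0.37), the scanner log ratio (-0.40), slide as a block (-0.39), without wild type 1 and knockout 1 (-0.38), with brightness as a covariate (-0.31) and with the replicate number as a block (-0.40); left-out arrays gave -0.43 to -0.36. It kept its direction under all 16 settings; the cause of the lost calls was not tested, except that position 2 alone leaves fewer arrays. Replicate numbers did not pair the arrays: same-numbered arrays correlated at -0.31 to 0.49, and 1 of 9 numbers correlated best with its own. With the replicate number as a block, 1 gene was past the threshold, which was not Grb14 (difference -0.40, adjusted p 1.00 in limma), and Irs1 differed by -0.062.

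None of the other genes of the set was past the threshold under any setting run, but signs turned. With position 2 alone or position as a block Grb10 was -0.038, Igf1 0.083, Insr 0.055 and Irs1 -0.25. With median centring Grb7 was 0.27, Igf1 0.18, Igf2 0.22 and Igf2r 0.26, against a median of all genes of 0.24. With the Cy5 channel alone Igf2 was 0.022, Insr 0.023 and Irs1 -0.040. With brightness Grb7 was 0.026, Insr 0.0012 and Irs1 -0.092. With array weights Insr was 0.0043 and Irs1 -0.070. With all probes averaged Igf1r was -0.048 and Irs1 -0.032, and without wild type 1 and knockout 1 Irs1 was -0.019. Leaving out single arrays, Insr ran from -0.028 to 0.038, Irs1 from -0.047 to 0.049, Grb7 from -0.080 to -0.011, Grb10 from 0.048 (without wild type 3) to 0.10, Igf1r from 0.060 to 0.17, Igf1 from -0.16 to -0.089, Igf2 from -0.17 to -0.081 (without wild type 4) and Igf2r from -0.13 to -0.00091. Position holds both genotypes only at position 2, which limits any correction for it, and Insr is limited by its signal over background.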
